A study of Saccharomyces cerevisiae with 8 samples.

Results

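The genes described here are 34 genes of meiosis and sporulation of budding yeast, chosen by name for their known roles and matched by symbol to the systematic names in the count table. All 34 were found, among 9014 features of which 6007 are protein-coding. They fall into 6 sets by role: 5 regulators (IME1, IME2, IME4, NDT80, MER1), 5 genes of meiotic DNA break formation (SPO11, REC102, REC104, REC114, MEI4), 5 of the meiotic chromosome axis and its signalling (HOP1, RED1, MEK1, REC8, SPO13), 5 of strand exchange (DMC1, MEI5, SAE3, MND1, HOP2), 5 of synapsis and crossing over (ZIP1, ZIP2, SPO16, MSH4, MSH5) and 9 of spore formation (SPS1, SPS2, SPS4, SPS19, SSP1, SMK1, DTR1, DIT1, DIT2).

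Polyadenylated RNA of 4 haploid strains was sequenced on the SOLiD platform, with 2 libraries per strain. All strains derive from BY4742, which is of mating type alpha (MAT-alpha) and carries his3D1, leu2D0, lys2D0 and ura3D0. WT has no further change, rrp6 has RRP6 replaced by LEU2 (rrp6::LEU2), and the double mutants carry rrp6::LEU2 together with air1::bleR (air1 rrp6) or air2::bleR (air2 rrp6). RRP6 encodes a nuclear exonuclease of the RNA exosome. AIR1 and AIR2 encode the RNA-binding subunits of TRAMP, a polyadenylation complex that hands nuclear RNAs to the exosome. Cultures started from a single colony and were harvested from 100 mL of rich medium (YPD), kept at 30 °C, when the optical density was near 2.5. The question taken up was whether meiotic mRNAs appear in growing haploid cells when Rrp6 is absent. Every strain without RRP6 also carries LEU2, so loss of RRP6 and gain of that marker cannot be told apart in a comparison with WT. Whether the duplicates are separate cultures is not stated in the labels. The p-values therefore reflect the spread between these 8 samples alone, and that spread may be technical.

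As background, a diploid yeast cell starved of nitrogen with a non-fermentable carbon source enters meiosis when Ime1 is made. Ime1 acts through Ume6, which binds the URS1 element of early meiotic promoters and, in cells growing on glucose, holds these genes silent with the Sin3 and Rpd3 deacetylase. Ndt80 later switches on the middle genes through the MSE element, and the last wave builds the spore wall. In fission yeast, mRNAs of meiotic genes transcribed during growth are marked by Mmi1 and degraded by the nuclear exosome.

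To place the 34 genes against that scheme, the 300 bases from 250 before to 50 after each start codon were read from the RefSeq assembly R64 and searched on both strands for the 6-base core of URS1, GGCGGC (reverse complement GCCGCC). The core stood in 16 of the 34 windows (47.1%), against 308 of 5987 windows of protein-coding genes (5.14%). The core CACAAA of the MSE, read as TTTGTG on the other strand, stood in 11 of the 34 (32.4%), against 18.8% of all windows. The 30 bases around the URS1 core of 6 of the genes are shown, since REC104 and SMK1 lay above WT in all 6 libraries without RRP6 and the other 4 genes, with the same core, did not. The core is in capitals, on the strand of the gene and from 5′ to 3′.
REC104: cgcacaatatttGGCGGCtattttccgcta
SMK1: gcgaaaaaaataGGCGGCaaaaggcgggtg
HOP1: gtttttaacctgGGCGGCtaaattgtactt
ZIP1: taaaataccctcGGCGGCtaaatttttaga
SPO16: gcgtgaaaagtgGGCGGCtaaaaccgagaa
SPO13: tattgagaaataGCCGCCgacaaaaaggaa
These stretches lie at chrVIII:412804-412833 (REC104), chrXVI:666117-666146 (SMK1), chrIX:226419-226448 (HOP1), chrIV:1032404-1032433 (ZIP1), chrVIII:402753-402782 on the minus strand (SPO16) and chrVIII:131940-131969 (SPO13), the others on the plus strand. The core begins 91, 151, 171, 20, 88 and 95 bases before the start codon, in that order. SPO13 holds it in the reverse orientation. A match of letters is a description and not a binding site. The windows of MND1, ZIP2, DIT1 and DIT2, described further on, hold no such core.

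The shallowest library was WT replicate 1 with 13787609 counts and the deepest WT replicate 2 with 124620247. Features of the ribosomal DNA took 51.7 to 82.3% of each library, which left 4565468 to 22041136 counts for all other RNA. The deletions of RRP6, AIR1 and AIR2 and the LEU2 marker went with their labels. RRP6 had 377 and 2131 counts in WT and 19 to 51 in the other libraries, AIR1 had 7 and 2 in air1 rrp6, AIR2 had 34 and 21 in air2 rrp6, and LEU2 had 0 in both WT libraries and 219 to 559 in the rest. LYS2 and URA3 had 0 counts in all 8 libraries, whereas HIS3 had 158 to 509, and a count per gene does not show which part of a gene is missing. The summed markers of mating type also went with the labels in all 8 libraries. The 4 alpha-specific genes summed to 639 to 1150 scaled counts (CPM, on edgeR's TMM scale). The 7 a-specific genes summed to 9.13 to 14.2 CPM and the 7 haploid-specific genes to 189 to 219 CPM. HMRA1, which encodes the a1 partner needed to shut off haploid genes in diploids, had 0 counts throughout. HMRA2 had 210 to 1319, and whether those reads came from that copy alone was not tested. MATALPHA1 and MATALPHA2 had the same counts as HMLALPHA1 and HMLALPHA2 in every library, so the counts do not tell these copies apart. Of the 18 markers summed above 14 were tested, and none passed the threshold in any of the 7 comparisons by edgeR's quasi-likelihood test. In rrp6 against WT 3 had an unadjusted p under 0.05, all haploid-specific. DESeq2 also called 0 against WT.

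All 34 genes were close to the bottom of the transcriptome in every strain. Per kilobase of coding sequence, the median over the 34 genes was 0.459 CPM for WT, 0.422 for rrp6, 0.392 for air1 rrp6 and 0.422 for air2 rrp6. The median over all protein-coding genes was 11.5, 10.5, 10.8 and 10.7. The median gene of the 34 thus ranked at percentile 7.2 of protein-coding genes in WT and at 6.4, 6.2 and 6.1 in the other strains. In WT all 34 lay below percentile 25. In air2 rrp6 33 did, the exception being MND1 at 6.13 CPM per kilobase, the highest level of any of them in any strain. None reached the median of protein-coding genes. Together they took 0.0111% ± 0.00064 (SD, n = 2) of the counts outside the ribosomal DNA in WT. The share was 0.0113% ± 0.00099 for rrp6, 0.011% ± 0.0022 for air1 rrp6 and 0.0138% ± 0.0018 for air2 rrp6. Libraries overlapped between WT and each mutant except air2 rrp6, whose libraries at 0.0125 and 0.015% were both above those of WT at 0.0106 and 0.0115%; no test was run on these shares. In bulk RNA, a few cells with much of an mRNA and many cells with a little cannot be told apart.

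The highest levels per kilobase in WT belonged to genes of synapsis and crossing over. SPO16, which works with ZIP2 at crossover sites, stood at 3.42 CPM per kilobase, ZIP1, the transverse filament of the synaptonemal complex, at 3.38, and MSH5, which pairs with MSH4 to stabilise crossover intermediates, at 1.96. SPO16 had 20 and 150 counts in WT, ZIP1 had 120 and 494, and MSH5 had 49 and 405. At the other end were both partners of an accessory complex of the Dmc1 recombinase: MEI5 and SAE3 had 0 counts in both WT libraries, which allows up to 0.041 CPM at 3 counts over the group, and MER1, a splicing activator of meiotic transcripts, had 0 and 1. Without RRP6, MEI5 had 1 count in 2 of 6 libraries, SAE3 had 1 and 3 counts in 2 libraries, and MER1 had 1 count in 2. These 3 genes were therefore at or near the detection limit with and without RRP6. Such limits cover counting error only.

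**Figure D1:**
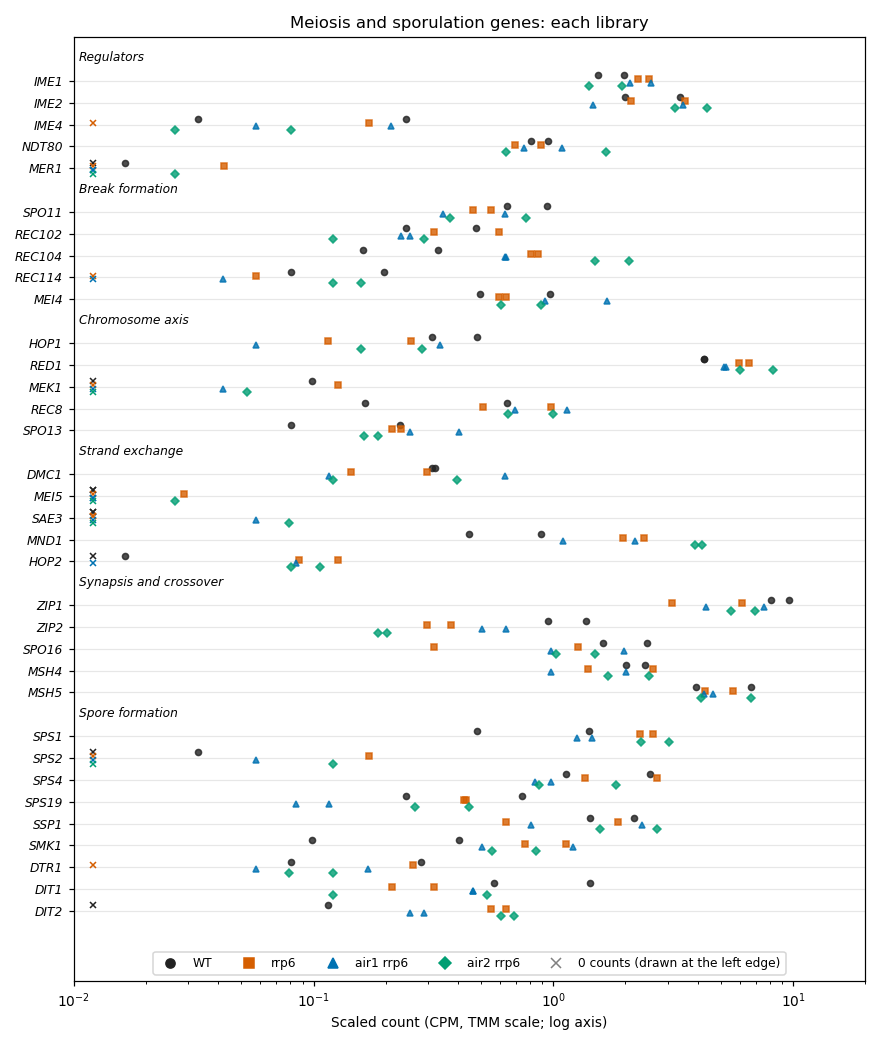
Scaled counts (CPM on a log axis) of each of the 34 genes in each of the 8 libraries, grouped by role; crosses at the left edge stand for 0 counts. Of the 23 tested genes, 15 overlap WT. MND1, REC104, DIT2, SMK1 and RED1 have all 6 libraries without RRP6 to the right of both WT libraries, as do 18.9% of all tested features and 6.18% of protein-coding ones. REC104, DIT2 and SMK1 passed the filter only through such libraries. MND1 needed them too, having reached the filter level in 1 WT library. ZIP1, ZIP2 and DIT1 have all 6 to the left, as do 9.76 and 12.7%.

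Low counts limited the tests. Of the 34 genes, 23 had enough counts to be tested and 11 did not: MEI5, MER1, SAE3, SPS2, MEK1, HOP2, IME4, REC114, DTR1, SPO13 and REC102, with 2 to 81 counts each over all 8 libraries and at most 29 in any one. The filter asked for at least 0.43 CPM of the library total in 2 libraries. HOP1 with 57 counts and DMC1 with 70 were just inside it, and REC102 with 81 was just outside. DMC1, DIT2, SPS19, SMK1 and REC104 reached that level in no WT library, so they were tested only through libraries without RRP6. HOP1, MEI4, REC8 and MND1 reached it in 1 WT library, so they too could not have passed on WT alone. That level is set on library totals. On the TMM scale DIT2, SMK1, REC104 and MND1 were higher in the libraries without RRP6. DMC1 and SPS19 had log2 fold changes of -0.16 and -1.15 for the 3 strains. A count over the tested genes is for that reason a description of those 23 and not of all 34.

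In rrp6 against WT, MND1 was called higher and no gene lower, so 1 of 23 tested genes passed an adjusted p of 0.05 by edgeR's quasi-likelihood test. Of all 7543 features tested, 8.8% were higher and 1.29% lower, but most of the higher ones were not coding, and among the 5647 tested protein-coding features 0.992% were higher and 1.68% lower. With the replicate number as a block, DIT2 passed as well, which made 2. In air1 rrp6 against WT no gene of the 23 passed, against 8.39% of all features and 1.72% of protein-coding ones in either direction; 3 had an unadjusted p under 0.05, and DESeq2 also called 0. In air2 rrp6 against WT, MND1, REC104 and DIT2 were called higher and ZIP2 lower. Of all features 8.75% were higher and 1.54% lower, and of protein-coding ones 1.24 and 1.93%. For the mean of the 3 strains without RRP6 against WT, MND1 and REC104 were called higher and ZIP2 lower. Of all features 10.6% were higher and 2.43% lower, and of protein-coding ones 1.49 and 3.06%. The blocked fit added DIT2 and SMK1, for 4 higher. REC104, DIT2 and SMK1 were tested only through libraries without RRP6, so calls of them are no support for a rise. MND1 passed the filter only with the help of such libraries, so its calls are no support for a rise either. These comparisons share the WT libraries and are not independent of each other.

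The tested genes were spread on both sides of 0. Their median log2 fold change was -0.12 in rrp6, -0.09 in air1 rrp6, -0.01 in air2 rrp6 and -0.12 for the 3 strains together, with 11 positive and 12 negative in the last. The medians over tested protein-coding features were -0.10, -0.07, -0.07 and -0.08, and over all tested features 0.01, 0.02, 0.03 and 0.01. Scaling by library totals, in which ribosomal DNA counts weigh, shifted the median of all features to 0.64, 0.77, 0.95 and 0.77 and that of these genes to 0.54, 0.71, 1.0 and 0.78, so directions hold relative to the bulk of features. The 6 libraries without RRP6 lay all above both WT libraries for 5 of the 23 genes (REC104, RED1, MND1, SMK1, DIT2), against 18.9% of all features and 6.18% of protein-coding ones. They lay all below for 3 (ZIP1, ZIP2, DIT1), against 9.76 and 12.7%, and overlapped WT for 15. REC104, SMK1 and DIT2 passed the filter only through the libraries in which they are high, and MND1 only with the help of those libraries. The 5 are therefore no support for a rise of these genes. An exact permutation test of 2 libraries against 6 has 28 splits and cannot go below a two-sided p of 0.071, so it could not pass the threshold for any gene. Set against the WT library of the same number, a comparison chosen after the values were seen, all 6 libraries were higher for 6 genes, REC8 being added, against 23.5% of all features and 10.1% of protein-coding ones. They were lower for 5, SPO11 and SPO16 being added, against 15.1 and 19.4%.

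**Figure D2:**
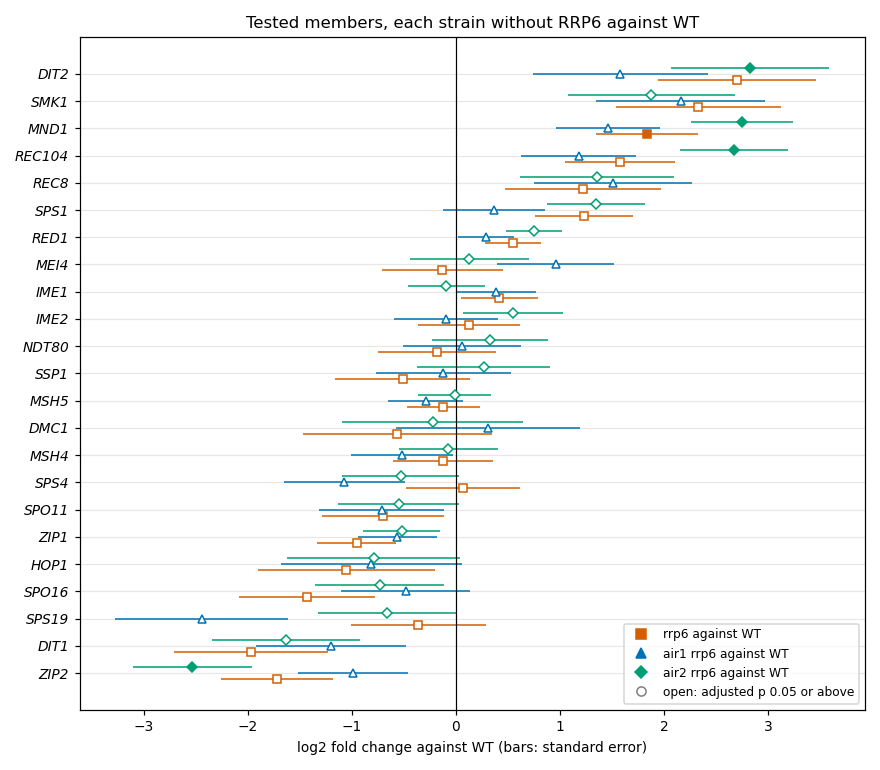
log2 fold change against WT, with its standard error, of the 23 tested genes in each strain without RRP6; filled symbols passed an adjusted p of 0.05. MND1, REC104, DIT2 and ZIP2 carry the filled symbols, and values run from -2.53 for ZIP2 to 2.83 for DIT2, both in air2 rrp6.

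The regulators gave no call. IME1, the activator that starts the programme, stood at 1.53 and 1.97 CPM in WT, against 2.51 and 2.25 (rrp6), 2.08 and 2.56 (air1 rrp6) and 1.93 and 1.41 (air2 rrp6). Its air2 rrp6 libraries overlapped WT, and its log2 fold change for the 3 strains was 0.24 with a standard error (SE) of 0.31. IME2, the kinase that Ime1 turns on, was at 0.19 (SE 0.40) and NDT80 at 0.07 (SE 0.47), both with overlapping libraries. IME4, the mRNA adenosine methyltransferase of meiosis, had 0 to 5 counts per library, and MER1 0 or 1. SUT643, an unannotated transcript known to be made upstream of IME1, was measured as a feature of its own and did not pass the threshold in any comparison either, with a log2 fold change of -0.16 for the 3 strains.

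Among the break formation genes REC104 was called higher, while SPO11 itself did not pass. REC104 passed the filter only through libraries without RRP6, so its values are no support for a rise of these genes. REC104, a partner of Spo11 in the break complex, had 0.161 and 0.329 CPM in WT, against 0.866 and 0.806 (rrp6), 0.636 and 0.631 (air1 rrp6) and 2.06 and 1.49 (air2 rrp6). All 6 libraries without RRP6 were above both of WT, and those of air2 rrp6 were the highest. In counts, WT had 2 and 20 and the others 11 to 78. Its log2 fold change was 2.67 (SE 0.52, adjusted p 0.011) in air2 rrp6 and 1.81 (SE 0.47, adjusted p 0.031) for the 3 strains, while rrp6 at 1.58 (adjusted p 0.10) and air1 rrp6 at 1.18 (adjusted p 0.28) did not pass. The call for the 3 strains ended when any 1 library other than rrp6 replicate 2 was left out (adjusted p 0.052 to 0.11), and that for air2 rrp6 ended without air2 rrp6 replicate 1 (log2 2.43, adjusted p 0.074).
SPO11, which makes the DNA breaks, had 0.644 and 0.938 CPM in WT and 0.347 to 0.767 without RRP6, with a log2 fold change of -0.65 (SE 0.46) for the 3 strains. MEI4, a break accessory gene, was at 0.32 (SE 0.48). Both overlapped WT. REC114, which acts with MEI4, had 13 of its 25 counts in WT, and REC102, the closest partner of REC104, had 32 of 81.

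No chromosome axis gene passed. RED1, a core axis protein, had 4.27 and 4.24 CPM in WT and 5.15 to 8.28 without RRP6, all above WT. Its log2 fold change of 0.53 (SE 0.22, adjusted p 0.17) did not pass. REC8, the meiotic cohesin, had 0.644 and 0.164 CPM in WT and 0.509 to 1.14 without RRP6, with a log2 fold change of 1.36 (SE 0.66, adjusted p 0.23), and its libraries overlapped. HOP1, the axis partner of Red1, was at -0.88 (SE 0.67) with 1 to 19 counts per library. MEK1, the kinase that acts on the axis, had 12 counts in all, and SPO13, a regulator of the first meiotic division, had 52.

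In strand exchange MND1 was called higher in rrp6, in air2 rrp6 and over the 3 strains. It reached the filter level in 1 WT library where 2 libraries were asked for, so it passed only with the help of libraries without RRP6. Its values are for that reason no support for a rise. Mnd1 and Hop2 form a complex that helps Dmc1 pair homologous DNA, and the MND1 transcript has an intron. MND1 had 0.886 and 0.444 CPM in WT, against 1.96 and 2.38 (rrp6), 1.1 and 2.19 (air1 rrp6) and 4.17 and 3.92 (air2 rrp6), from 11 to 158 counts per library. All 6 libraries without RRP6 were above both WT libraries, and air2 rrp6 was above the rest. Its log2 fold change was 1.84 (SE 0.49, adjusted p 0.044) in rrp6, 2.75 (SE 0.49, adjusted p 0.0079) in air2 rrp6 and 2.02 (SE 0.44, adjusted p 0.015) for the 3 strains. In air1 rrp6 it was 1.46 (SE 0.50, adjusted p 0.13). All 3 calls rest on WT replicate 2, the deepest library: without it the log2 fold changes were 1.26 (adjusted p 0.23), 2.14 (0.063) and 1.43 (0.14), and the rrp6 call also ended without any 1 library other than WT replicate 1 (adjusted p 0.052 to 0.23). With each library's ribosomal DNA share as covariate, every call among the 23 genes ended, at log2 fold changes for MND1 of 1.39, 2.01 and 1.41 (adjusted p 0.17 to 0.21), for REC104 of 2.98 in air2 rrp6 and 2.07 for the 3 strains, for ZIP2 of -2.70 and -1.89, and for DIT2 of 3.55 in air2 rrp6.
HOP2, the partner of MND1, had 0 and 1 count in WT and 0 to 4 in the other libraries. DMC1, the meiotic recombinase, had 0.322 and 0.313 CPM in WT and 0.116 to 0.631 without RRP6, which overlap, and a log2 fold change of -0.16 (SE 0.71). Of the 34 genes 7 have an intron (REC102, REC114, MEI4, DMC1, SAE3, MND1, HOP2), of which 3 were tested and MND1 alone was called.

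The genes of synapsis and crossing over had log2 fold changes below 0 in every strain under TMM scaling, and ZIP2 alone of the 5 passed. ZIP2, which recruits crossover factors with Spo16, had 1.37 and 0.954 CPM in WT, against 0.375 and 0.297 (rrp6), 0.636 and 0.504 (air1 rrp6) and 0.185 and 0.202 (air2 rrp6). All libraries without RRP6 were below both WT libraries. ZIP2 fell by 2.53 on the log2 scale (SE 0.57, adjusted p 0.022) in air2 rrp6 and by 1.75 (SE 0.41, adjusted p 0.021) for the 3 strains; rrp6 at -1.72 (adjusted p 0.082) and air1 rrp6 at -0.99 (adjusted p 0.36) did not pass. The ZIP2 call for the 3 strains ended without either WT library, without air1 rrp6 replicate 2 and without either air2 rrp6 library (adjusted p 0.056 to 0.076), the air2 rrp6 call without the last 3 (0.054 to 0.15), and both with library totals (log2 -1.03 and -1.65).
ZIP1 had 9.66 and 8.13 CPM in WT and 3.12 to 7.57 in the others, all below WT, with a log2 fold change of -0.68 (SE 0.30, adjusted p 0.18). SPO16 was at -0.88 (SE 0.49), MSH4 at -0.24 (SE 0.39) and MSH5 at -0.14 (SE 0.28). With library totals these 4 were at 0.06, 0.01, 0.56 and 0.76, so their direction holds only relative to the bulk of features.

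Among the spore genes the divergent pair DIT1 and DIT2, which make the dityrosine of the outer spore wall, lay on opposite sides of WT. DIT2 had 0 and 0.115 CPM in WT (0 and 7 counts), against 0.548 and 0.636 (rrp6), 0.289 and 0.252 (air1 rrp6) and 0.607 and 0.687 (air2 rrp6). All libraries without RRP6 were above WT, those of air1 rrp6 by the least. DIT2 passed the filter only through such libraries, so its values are no support for a rise. DIT2 was called in air2 rrp6, at 2.83 on the log2 scale (SE 0.76, adjusted p 0.043). In rrp6 at 2.70 (adjusted p 0.054) and for the 3 strains at 2.37 (SE 0.69, adjusted p 0.052) it was just outside the threshold. It passed in both in the blocked fit. The air2 rrp6 call ended when any 1 of the 8 libraries was left out. It also ended with DESeq2 (adjusted p 0.058), with only the strains compared and with the ribosomal DNA covariate. The fitted log2 value of 7.0 without WT replicate 2, which leaves WT at 0 counts, is no bound.
DIT1 had 0.564 and 1.43 CPM in WT, against 0.317 and 0.212 (rrp6), 0.463 and 0.462 (air1 rrp6) and 0.528 and 0.121 (air2 rrp6). All 6 lay below both WT libraries, and its log2 fold change of -1.60 (SE 0.54, adjusted p 0.088) did not pass. SMK1, the MAP kinase of spore wall assembly, had 0.403 and 0.0987 CPM in WT, against 1.13 and 0.764 (rrp6), 1.21 and 0.504 (air1 rrp6) and 0.554 and 0.848 (air2 rrp6). Its libraries without RRP6 were all above WT, but on 5 and 6 WT counts. SMK1 passed the filter only through those libraries, so its values are no support for a rise. Its log2 fold change of 2.12 (SE 0.72, adjusted p 0.088) for the 3 strains did not pass, though the blocked fit called it.
SPS1, a sporulation kinase, was at 0.98 (SE 0.41, adjusted p 0.16), SPS4 at -0.51 (SE 0.44) and SSP1, of the prospore membrane edge, at -0.12 (SE 0.53). SPS19, a peroxisomal reductase, was at -1.15 (SE 0.54); it had 2 counts in each air1 rrp6 library. All 4 overlapped WT. SPS2, a spore wall protein, and DTR1, the dityrosine transporter, had 10 and 38 counts in all.

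**Figure D3:**
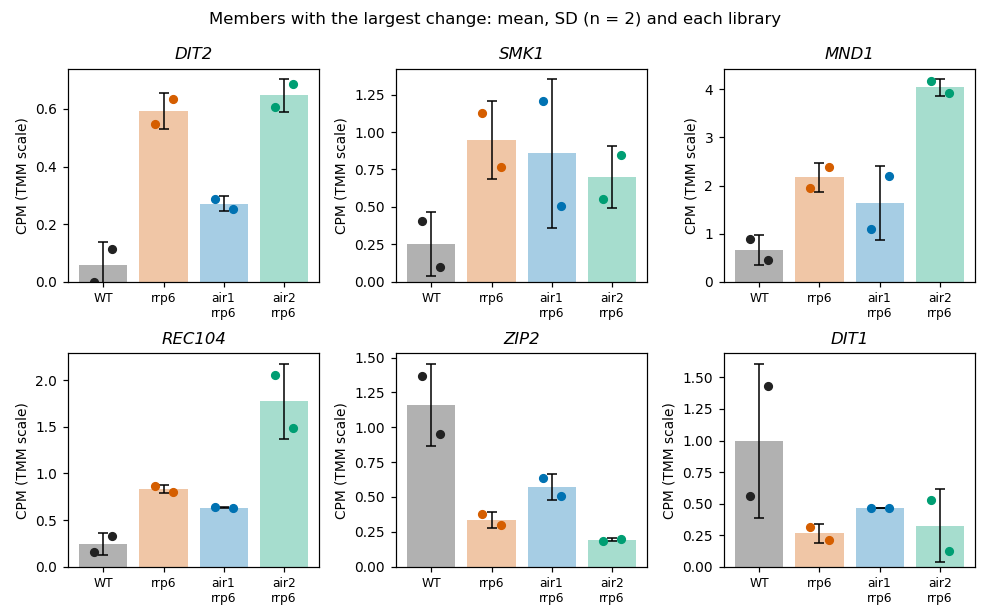
CPM of the 6 tested genes with the largest log2 fold change for the 3 strains without RRP6 against WT; bars are means, lines the SD of 2 libraries and points the libraries. MND1 and REC104 are highest in air2 rrp6, ZIP2 is lowest there, and all 6 stay under 5 CPM.

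None of the 23 genes passed the threshold between strains that all lack RRP6. In air1 rrp6 against rrp6 the edgeR calls were 0 (0.0663% of all features called), in air2 rrp6 against rrp6 0 (0.0133%) and between the double mutants 0 (0.0795%), with 1, 1 and 3 genes at an unadjusted p under 0.05, and DESeq2 gave 0 in each. MND1 in air2 rrp6 against rrp6 had a log2 fold change of 0.90 (SE 0.43) and REC104 one of 1.09 (SE 0.47), each with an adjusted p of 1.0. Between air1 rrp6 and air2 rrp6 they stood at -1.28 (SE 0.45) and -1.49 (SE 0.49), with an adjusted p of 0.99 each. That MND1 and REC104 were called in air2 rrp6 and not in air1 rrp6 is thus not a shown difference between these strains, nor is it shown that the strains are alike.

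Called genes were found with and without a URS1 core. Of the 16 genes with the core in their window 8 were tested, and REC104 alone was called, with a median log2 fold change of 0.08 for the 3 strains over a range of -0.88 to 2.12. Of the 18 without it 15 were tested, with 1 higher and 1 lower, a median of -0.12 and a range of -1.75 to 2.37. REC104, SMK1, HOP1, ZIP1 and SPO16, whose stretches are printed above, had log2 fold changes of 1.81, 2.12, -0.88, -0.68 and -0.88. SPO13, also printed, was not tested. The other tested genes with the core, MEI4, DMC1 and REC8, were at 0.32, -0.16 and 1.36. REC104 and SMK1 were tested only through libraries without RRP6, and so was DMC1.

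The protein-coding genes next to the called ones were looked at after their values were seen. LIN1 is divergent to REC104, with 500 bases between the coding sequences, and had 5.15 and 4.93 CPM in WT, against 0.635 and 0.806 (rrp6), 1.39 and 1.89 (air1 rrp6) and 0.37 and 0.121 (air2 rrp6). It fell by 2.89 on the log2 scale for the 3 strains (adjusted p 0.001), opposite to REC104. On the other side of REC104, KEL1 was at -0.20 (adjusted p 0.43). Next to MND1, STR3 began 530 bases after its end and was at -1.37 (adjusted p 0.094), and GTS1, 620 bases before its start, was at -0.08 (adjusted p 0.86). ZIP2 has RMR1 462 bases before it on the same strand, at -0.83 (adjusted p 0.15), and beyond it HFM1. DIT1 and DIT2 have 898 bases between them. No coding sequence of the 34 genes overlaps that of another protein-coding gene of RefSeq. Counted features of other kinds were not checked for overlap, and the sources used here do not say whether counting followed strand. Reads of antisense transcripts over these genes therefore cannot be told apart from their own.

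**Figure D4:**
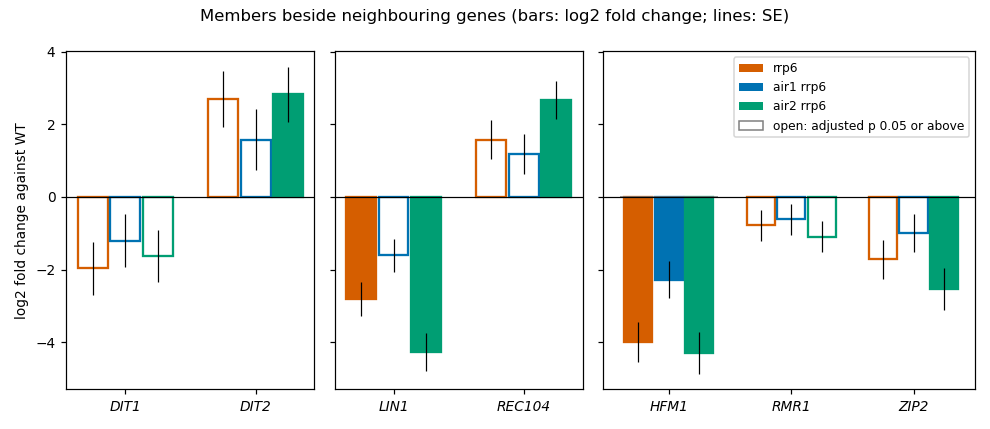
log2 fold change against WT (bars) with its standard error (lines) of DIT2, REC104 and ZIP2 beside the genes upstream of them; open bars had an adjusted p of 0.05 or above. Bars of DIT2 and REC104 point up and those of DIT1, LIN1, HFM1, RMR1 and ZIP2 point down.

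Of 52 other genes of meiosis and sporulation, listed for comparison, 39 were tested; for the 3 strains 0 were higher and 3 lower, with a median log2 fold change of 0.20. Of protein-coding features, 1.49% were higher and 3.06% lower, and of all features 10.6 and 2.43%. The 3 were HFM1, a helicase of meiotic crossing over, SPO1, a lipase-like protein of sporulation, and GMC1, needed for normal synaptonemal complex. HFM1 had 8.94 and 8.85 CPM in WT, against 0.375 and 0.764 (rrp6), 0.983 and 2.61 (air1 rrp6) and 0.317 and 0.606 (air2 rrp6), with WT far above every other library. HFM1 fell by 3.53 on the log2 scale for the 3 strains (SE 0.37, adjusted p 0.00072), by 3.99 in rrp6 (adjusted p 0.0031), by 2.28 in air1 rrp6 (adjusted p 0.025) and by 4.3 in air2 rrp6 (adjusted p 0.0025). Its calls in rrp6, air2 rrp6 and the 3 strains held in all alternatives tried, and the one in air1 rrp6 ended without WT replicate 2 (-2.30, adjusted p 0.071) and without air1 rrp6 replicate 1 (-1.81, adjusted p 0.12), and also with library totals (-1.40, adjusted p 0.16) and with the covariate (-2.69, adjusted p 0.11). For the 3 strains SPO1 had a log2 fold change of -2.91 (SE 0.45, adjusted p 0.0031) and GMC1 one of -1.31 (SE 0.22, adjusted p 0.005). Both had every library without RRP6 below WT. SPO1, with 3 to 8 counts in those libraries, passed the filter only through the WT libraries, where it had 16 and 113. Its calls as lower are therefore no support for a fall. SPO1 also passed in rrp6 (-3.66), air2 rrp6 (-2.77) and air1 rrp6 (-2.30, adjusted p 0.05), and GMC1 in rrp6 (-1.31) and air2 rrp6 (-1.87). The SPO1 call ended in 14 of 16 alternatives in air1 rrp6 (adjusted p up to 0.39). In air2 rrp6 it ended in 5, which were WT replicate 2 or either air2 rrp6 library left out, library totals and the covariate (up to 0.36). In rrp6 it ended in 2, without rrp6 replicate 1 (-3.21, 0.07) and with the covariate (0.066), and for the 3 strains with the covariate (-2.32, 0.12). The GMC1 call ended with library totals in rrp6, air2 rrp6 and the 3 strains (-0.76, -1.03 and -0.63, adjusted p 0.48, 0.21 and 0.32) and with the covariate (0.054 to 0.07). In rrp6 it also ended when replicate 1 of WT (-1.16, 0.065) or of rrp6 (-1.27, 0.088) was left out, and when WT and rrp6 were fitted alone (-1.28, 0.077). DESeq2 likewise gave 0 higher and 3 lower for the 3 strains.

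Of 25 regulators that hold back or permit entry into meiosis, 23 were tested and 0 passed in any comparison with WT by edgeR or by DESeq2, with at most 1 at an unadjusted p under 0.05. For the 3 strains 10.6% of all features were called higher and 2.43% lower, and of protein-coding ones 1.49 and 3.06%. UME6 was at -0.10 (SE 0.22) for the 3 strains, SIN3 at -0.05 (SE 0.20), RPD3 at -0.25 (SE 0.17) and RME1, the haploid repressor of IME1, at -0.16 (SE 0.16). Among 18 glucose-repressed and late-growth genes 11 were tested, and GRE1, a stress-induced hydrophilin, was the 1 called (DESeq2 called 2 higher and 1 lower for the 3 strains). It was called higher in air2 rrp6, against 8.75% of all features and 1.24% of protein-coding ones, and for the 3 strains, against 10.6 and 1.49%. GRE1 had 0.322 and 0.214 CPM in WT and 0.547 to 2.01 without RRP6. Its log2 fold change was 2.90 in air2 rrp6 (SE 0.57, adjusted p 0.011) and 2.11 for the 3 strains (SE 0.51, adjusted p 0.024). Both WT libraries were under the filter level for GRE1, so it was tested only through libraries without RRP6. Its calls are for that reason no support for a rise. Both GRE1 calls ended without WT replicate 2 (log2 2.48 and 1.70, adjusted p 0.086 and 0.18), without air2 rrp6 replicate 1 (0.059 and 0.06) and with the covariate (0.082 and 0.086), and the second also without air1 rrp6 replicate 1 (0.064) or air2 rrp6 replicate 2 (0.053). The summed level of these 18 genes was 59.4 and 39.0 CPM in WT. It was 46.7 and 45.8 in rrp6, between the WT libraries, while air1 rrp6 at 66.5 and 67.0 and air2 rrp6 at 63.1 and 59.6 lay above both; no test was run on these sums.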

How the data were processed

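Per the labels' protocols, total RNA was passed over poly(U) sepharose to enrich polyadenylated RNA, which was sequenced on SOLiD. The authors deposited a table of expected counts per feature and library, not scaled for depth, in which 11.1 to 13.0% of values per library are not whole. The submitters' processing notes name edgeR 2.2.5, Bowtie 0.12.7 and SAMtools. The build, the annotation and the strand setting of the authors' counting were not found there or in the labels. A second deposited table holds the authors' log2 ratios, which entered no test.

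Counts were rounded, kept by filterByExpr (minimum count 10), scaled by TMM and fitted with edgeR 4.0.16 (robust quasi-likelihood, 1 mean per strain, 8 libraries, R 4.3.3). Benjamini-Hochberg adjustment ran over 7543 features, with a threshold of 0.05. SE is the absolute log2 fold change over the square root of F. CPM are on the TMM scale, with an SD over 2 libraries. The steps were tested on simulated data. Alternatives were DESeq2 1.42.0 (its test and its size factors), library totals, TMM from protein-coding features, no filter, a replicate block, the ribosomal DNA share as covariate, the compared strains alone, and each library left out.

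Duplicates differed beyond counting error (chi-square per degree of freedom 66.1 to 346). Same-numbered libraries deviated together in all 6 pairs of strains (r 0.13 to 0.37 across features, which are not independent), although no label says what the numbers mark. The fold changes, SE and adjusted p of the main fit do not pair the samples. The replicate number as a block was an alternative, and calls that it added are named. The genes and lists were chosen with earlier results of these data known. Values in every library were given for genes past the threshold, the 6 largest changes for the 3 strains, and levels of the 3 highest and 3 lowest genes per kilobase in WT; of other lists, up to 4 genes past the threshold.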

Additional observations from a re-analysis of the deposited data

How the results depend on the processing

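Among the 23 tested genes, the count called higher in rrp6 against WT was 1 and became 5 with library totals, 2 with TMM from protein-coding features, 2 with the replicate block, 0 with the ribosomal DNA covariate and 0 with only the strains compared; with 1 library left out it ran from 0 to 1 (SPS1 in place of MND1 without WT replicate 2), and the count lower from 0 to 2 (SPO16 and ZIP1 without rrp6 replicate 2; 0 with all libraries). In air1 rrp6 the count higher was 0, and 2 with library totals. In air2 rrp6 the 3 higher became 6 with library totals, 2 with DESeq2, 2 with only the strains compared and 0 with the covariate. With 1 library left out DIT2 was lost each time. MND1 was lost without WT replicate 2, where SPS1 came in, and REC104 without air2 rrp6 replicate 1. The 1 lower became 0 with library totals, the covariate and only the strains compared, and was lost in some fits with 1 library left out. For the 3 strains the 2 higher became 5 with library totals, 3 with TMM from protein-coding features, 4 with the block and 0 with the covariate. With 1 library left out REC104 was lost except without rrp6 replicate 2, and MND1 was lost without WT replicate 2. The 1 lower became 0 with library totals and the covariate. ZIP2 was also lost in some fits with 1 library left out, DIT1 taking its place without WT replicate 1. Library totals carry the median shift given above, and for the other settings the cause was not tested. The block changed no other count of calls. No called log2 fold change of these genes turned its sign in any alternative, and the comparisons among the strains without RRP6 gave 0 calls in each. Depth limits the rest, since 11 of the 34 genes had too few counts to be tested.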

Other observations

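In the authors' deposited table, the log2 ratios of rrp6 over WT followed WT replicate 1 alone. Across features, which are not independent, they correlated at 1.0 with the log2 ratio of mean rrp6 share to WT replicate 1 (6905 features) and at 0.713 with the ratio to WT replicate 2 (6896 features). All 379 features with 0 counts in WT replicate 1, 5 or more in WT replicate 2 and a count in rrp6 are listed above 15 in the authors' deposited table. DIT2 is listed at 29.32 and MEK1 at 25.84 in the authors' deposited table, although WT replicate 2 had 7 and 6 counts. REC104 is listed at 2.38 and SPS1 at 2.35 in that column of the authors' deposited table, against 1.58 and 1.23 in the fit on both WT libraries.

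The columns of the authors' deposited table headed air1 over wt and air2 over wt run opposite to the counts, with correlations of -0.87 and -0.88 across 7133 features. REC104 is listed there at -1.98 and -3.48 and MND1 at -0.93 and -2.19 in the authors' deposited table, where the fit gave 1.18 and 2.67 for REC104 and 1.46 and 2.75 for MND1.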
